A study of Mus musculus with 6 samples.

Results

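A small group of KPC cancer cells in orthotopic pancreatic tumours carried a high level of interferon-induced transcripts. These interferon-high cells were 225 of 14624 KPC cancer cells with low Mgp and Dcn, and 225 of 74546 cells in all. They were chosen by their own transcripts, as cancer cells in which Isg15, Ifit1, Ifit3 and Rsad2 together made up at least 0.1% of the UMIs (unique molecular identifiers, each standing for 1 captured transcript). The cancer cells themselves were barcodes that held 2000 UMIs or more and over 200 genes, with a mitochondrial share below 10%. They also had at least 1 UMI of Gm49504, at least 3 UMIs of Krt8, Krt18, Bmp4 and Sox4 together and no more than 1 UMI of the leukocyte gene Ptprc. C1qa, C1qb and C1qc had to stay under 0.2%, S100a8 and S100a9 under 1% and Mgp and Dcn under 0.1% of the UMIs of the cell. The 225 cells came as 65 from OE-Vector 1, 65 from OE-MLKL 1, 66 from OE-MLKL 2 and 29 from OE-MLKL 3, and no barcode among them was shared between libraries. Pairs of libraries shared 1 to 10 barcodes among all Mgp-Dcn-low cancer cells, too few for a difference to show among so few members.

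The tumours were grown for 4 weeks in the pancreas of C57BL/6 mice aged 6 to 8 weeks from KPC cells, cultured mouse cells of pancreatic cancer that carry mutant Trp53 and derive from a Pdx1-Cre model. These cells had been given either a control vector (OE-Vector) or a construct for overexpression of mouse Mlkl (OE-MLKL), so that both groups shared the KPC genotype, the host strain and the time of harvest. The count matrices of 1 OE-Vector library and 3 OE-MLKL libraries were used, and those of OE-Vector 2 and 3 were not analysed here. A difference between the groups therefore cannot be told apart from a difference between tumours. Total depth was 150591289 to 169978362 UMIs per library, and the cancer cells labelled OE-MLKL did not as a group hold more Mlkl than those of OE-Vector 1 (8.4, 12.4 and 18.9 against 15.2 CPM), so that the groups are named by their labels alone. CPM are the UMIs of a gene per 1000000 UMIs.

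Interferons are secreted proteins that bind receptors on the cell surface and act through the kinases Jak1, Jak2 and Tyk2. Type I interferons lead to a complex with Stat2 and Irf9 that binds the interferon-stimulated response element, and interferon gamma leads to Irf1. The induced genes encode antiviral effectors, guanylate-binding proteins, the machinery of antigen presentation, chemokines that attract T cells, and inhibitors that end the response. In pancreatic cancer such genes are known in both the cancer cells and the leukocytes around them.

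The 4 genes that chose the cells are given as a description, with no test. Isg15, a ubiquitin-like protein that is attached to other proteins, stood at 787 CPM in OE-Vector 1 and 578, 644 and 595 CPM in OE-MLKL 1, 2 and 3, and at 53.2, 17, 26.7 and 27.1 CPM in the other Mgp-Dcn-low cancer cells of the same libraries. Ifit1, which binds viral RNA, reached 734, 1131, 802 and 723 CPM against 49.5, 25, 27.4 and 42.5, in the same library order of OE-Vector 1 and OE-MLKL 1, 2 and 3, which is kept below. Ifit3, its partner, had 537, 592, 469 and 579 CPM against 39.8, 11, 17.8 and 35.7. Rsad2, the antiviral enzyme viperin, varied most between libraries, with 194, 196, 41.6 and 271 CPM against 3.62, 0.73, 0.938 and 2.25, and was low in OE-MLKL 2.

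All 4 chosen genes were detected in 65 of the cells, 3 in 143, 2 in 16 and a single gene in 1. Ifit1 was the gene with the most UMIs in 103 cells, Isg15 in 78, Ifit3 in 35 and Rsad2 in 9. The chosen genes held up to 1.26% of the UMIs of a member, with a median of 0.173%, which rested on 3 to 275 UMIs (median 34). The threshold cut a continuous tail. Of the members, 55 lay under 0.12%, and 75 of the other cells lay at 0.08% or more. At the other end, 6635 of the 14624 cancer cells had no UMI of any chosen gene. The same genes were present outside the cancer cells, with Isg15 at 819.5, 62.7, 94.4 and 310 CPM in cells gated as neutrophils, at 87.3, 23, 28.9 and 31.8 CPM in cells gated as macrophages and at 133, 26.8, 31.4 and 75.8 CPM in barcodes of at most 100 UMIs, whose RNA is mostly free of cells.

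Promoters were searched for the letters to which interferon-activated factors are known to bind. Stretches of 100 bases are printed below from RefSeq (GRCm38.p6), those of Isg15 and of the 3 genes with the largest rise whose promoter held the motif GAAA, any 2 bases, GAAA on either strand. Capitals mark the motif, joined where matches overlap, and each stretch runs 5′ to 3′ along the strand of its gene.
Isg15 (chr4:156200830-156200929, minus strand): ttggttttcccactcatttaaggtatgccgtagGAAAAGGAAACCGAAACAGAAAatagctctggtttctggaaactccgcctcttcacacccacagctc
Ifit3b (chr19:34607758-34607857, plus strand): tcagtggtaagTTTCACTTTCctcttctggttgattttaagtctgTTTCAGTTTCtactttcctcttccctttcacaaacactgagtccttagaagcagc
Cxcl10 (chr5:92349040-92349139, minus strand): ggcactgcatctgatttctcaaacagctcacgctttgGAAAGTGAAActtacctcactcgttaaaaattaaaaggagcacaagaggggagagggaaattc
Ifi206 (chr1:173491319-173491418, minus strand): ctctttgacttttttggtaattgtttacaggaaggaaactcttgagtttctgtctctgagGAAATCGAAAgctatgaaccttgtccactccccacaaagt
Isg15 held 3 overlapping matches, Ifit3b 2, and Cxcl10 and Ifi206 a single one. The stretch of Ifit3 was identical to that of Ifit3b, so that reads of this pair may be split between the copies. Over windows from 250 bases before to 50 bases after each start site, the motif was present in 3.99% of all 27025 promoters and in 3.85% of the 11007 whose genes were tested. It was present in 22.4% of the 326 genes that rose in interferon-high cells and had a window, in 49.4% of the 77 that rose at least 4-fold, in 11.2% of the 170 that rose under 2-fold, in 17 of 33 antiviral effectors and in 9 of 10 guanylate-binding proteins and immunity-related GTPases. Among the genes that fell it was present in 2 of 52, and it was in none of 21 cell cycle genes. The windows of Mlkl, Ifit2, Irf7 and Cd274 held no match.

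The label of cancer cell was checked against markers that the rule had not used. The summed KPC cancer markers were at 512 to 586 CPM in interferon-high cells and at 522 to 597 CPM in the other cancer cells, and none of the 10 tested markers passed the test. Both states had passed the same limits for cancer cells. The same sum was 482, 569, 525 and 415 CPM in free RNA, and its part in these values was not tested. It was lower in cells gated as macrophages (125, 83.1, 91.3 and 186 CPM) and as neutrophils (86.0, 184, 123 and 146 CPM). Krt8 and Krt18, keratins of simple epithelia that the rule did use, stood at 625, 522, 705 and 559.7 and at 956, 626, 757 and 427 CPM. Epcam was low, at 0, 14.1, 1.16 and 10.2 CPM against 2.47, 3.13, 2.53 and 11.7 in the other cells, so that the class rests on keratins and Gm49504 rather than on Epcam.

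Transcripts of other cell types were measured in the same sums. Neutrophil markers summed to 335 CPM in the interferon-high cells of OE-Vector 1 against 194 in its other cancer cells, and to 116 to 181 against 129 to 169 CPM in the OE-MLKL libraries. Macrophage markers summed to 379 to 736 against 431 to 771 CPM and were higher only in OE-MLKL 1. T cell markers summed to 4.63 to 6.18 against 4.33 to 8.36 CPM, natural killer cell markers to 0 to 11.5 against 0.385 to 8.34, B cell markers to 0.882 to 1.46 against 1.32 to 2.83 (with Ms4a1 at 0), and dendritic cell markers to 0 to 1.99 against 0.682 to 3.53 (with Flt3, Cd209a and Siglech at 0). Endothelial markers were highest in OE-Vector 1, at 36.4 against 12.5 CPM, and reached 3.53 to 11.7 against 3.70 to 10.7 CPM in the OE-MLKL libraries. Fibroblast markers were lower in all 4 libraries, at 112 to 264 against 187 to 311 CPM, and Pdgfrb, a fibroblast and pericyte receptor, fell by 0.61 on the log2 scale (adjusted p = 0.0015). Acinar markers were at 1.46 to 15.9 against 2.99 to 30.0 CPM and erythroid markers at 0 to 1.16 against 0.122 to 35.8 CPM. None of these lists had a marker that was called higher. All 5 endothelial markers had a positive log2 fold change without a call (median 1.27), from 73, 4, 8 and 8 UMIs in the interferon-high cells. The part of these cell types in the results was not tested.

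**Figure D1:**
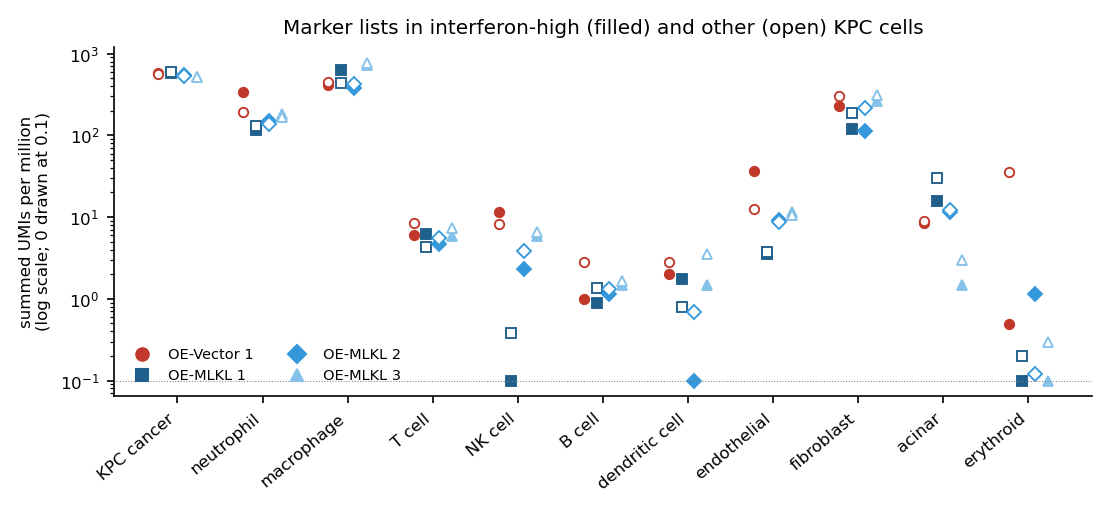
Summed CPM (log axis, 0 drawn at 0.1) of marker lists in interferon-high (filled) and other Mgp-Dcn-low KPC cancer cells (open), with 1 point per library. KPC cancer markers overlap between the states, and in OE-Vector 1 the neutrophil sum was 335 against 194 and the endothelial sum 36.4 against 12.5.

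The first comparison asked how common the interferon-high state was in each tumour. It made up 3.35% of the Mgp-Dcn-low cancer cells of OE-Vector 1 (65 of 1943, exact 95% binomial interval 2.59 to 4.24). In OE-MLKL 1 it was 1.31% (65 of 4954, 1.01 to 1.67), in OE-MLKL 2 1.21% (66 of 5448, 0.938 to 1.54) and in OE-MLKL 3 1.27% (29 of 2279, 0.854 to 1.82). The intervals cover counting error only. The OE-MLKL libraries lay close together, at 1.27% ± 0.0507 (SD, n = 3), and OE-Vector 1 stood above all of them by 2.08 percentage points, or 2.64-fold. An exact two-sided permutation test gave p = 0.25, which is the smallest that 1 library against 3 can give. Median depth was 26986, 13019, 12900.5 and 21617.5 UMIs in the other cancer cells. With every cell thinned to 2000 UMIs, OE-Vector 1 had 8.29% and OE-MLKL 3.20% ± 1.08 (SD, n = 3). The difference grew to 5.27 points at a threshold of 0.05% and shrank to 0.941 points at 0.2%. Other cells of OE-Vector 1 also passed the threshold more often. It was passed by 30.1% of gated neutrophils there against 4.65%, 6.70% and 15.6% in OE-MLKL 1, 2 and 3, by 5.43% of gated macrophages against 0.963%, 0.796% and 2.17%, and by 3.06% of gated T cells against 0.554%, 0.160% and 0.940%. The gates took cells of 500 UMIs or more without Gm49504. They used S100a8 and S100a9 for neutrophils, C1q genes for macrophages and Cd3d, Cd3e and Cd3g for T cells. Gated neutrophils had a median of 1236, 750, 787 and 1472 UMIs. Few UMIs thus reached the threshold in them, and their shares are not comparable with those of cancer cells. Stricter leukocyte limits left 2.86% of the cancer cells of OE-Vector 1 and 1.33% ± 0.0651 (SD, n = 3) of those of OE-MLKL.

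**Figure D2:**
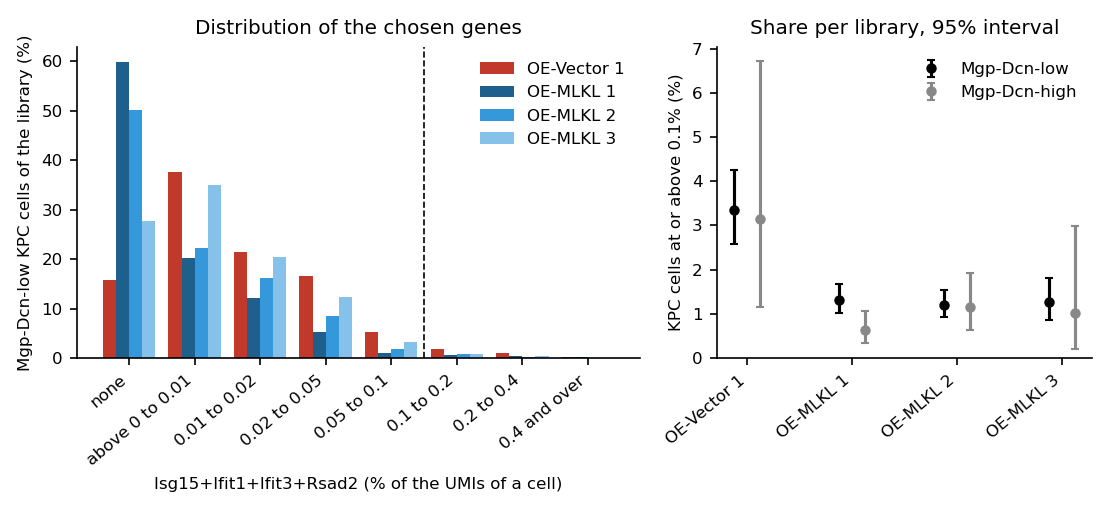
Left, the share of Mgp-Dcn-low KPC cancer cells of each library (%) by the percentage of UMIs from Isg15, Ifit1, Ifit3 and Rsad2, with the threshold of 0.1% as a dashed line. Right, the share at or above the threshold with its exact 95% binomial interval in Mgp-Dcn-low (black) and Mgp-Dcn-high cells (grey), 3.35% in OE-Vector 1 and 1.21% to 1.31% in the OE-MLKL libraries for the former.

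Cancer cells with high Mgp and Dcn, transcripts of matrix proteins, held the state as well. It was found in 6 of 191, 14 of 2179, 14 of 1210 and 3 of 291 of them, or 3.14%, 0.642%, 1.16% and 1.03%. These shares were below those of the Mgp-Dcn-low cells in 4 of 4 libraries, by 0.292 ± 0.264 percentage points (SD, n = 4), with an exact two-sided paired permutation p of 0.13, the smallest that 4 pairs can give. The direction held in fewer libraries under some alternatives, in 2 of 4 without marked doublets and at a threshold of 0.2%, and in 3 of 4 under stricter leukocyte limits and at a mitochondrial limit of 5%.

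The second comparison asked which other genes differed between the interferon-high cells and the remaining cancer cells of the same tumour. Counts were summed per library and state, and the edgeR quasi-likelihood test with the library as a block and Benjamini-Hochberg adjustment called 413 genes higher (2.79% of 14828 tested) and 76 lower (0.513%) at 0.05. With the library as a block, the p-values measure how the difference between states varied among these libraries. The edgeR fit estimates that spread partly from all genes together. The 4 chosen genes and the 13 other genes of the rule took no part in the tests. The rest were read in the very cells that the chosen genes had picked, so that the fit describes which genes went with them and is not independent evidence for a class of cells. Of the 413 higher genes, 350 were higher in 4 of 4 libraries, and of the 76 lower genes 75 were lower in 4 of 4, where 813 and 2568 of all tested genes were. For states said below not to overlap, the share of all tested genes without overlap is not given. The gene lists below share some genes, and their counts of higher genes stand against the 2.79% of all tested genes. The median log2 fold change of all tested genes was -0.06. DESeq2 called 405 higher and 22 lower, and limma-voom 720 and 21. By edgeR the lower genes numbered 66 without OE-Vector 1 and 210, 122 and 55 without OE-MLKL 1, 2 and 3. With cells chosen on 1 random part of their UMIs and measured in the other, 377 were higher and 106 lower, among them 339 of the 413 and 41 of the 76. Without the library block the count was 94 higher and 0 lower by edgeR, with 710 genes at an unadjusted p under 0.05.

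Transcripts of interferons themselves were close to absent from the interferon-high cells and from the other cancer cells alike. The 21 interferon genes summed to 0, 0, 1.16 and 1.46 CPM in the former and to 0.812, 0.837, 0.573 and 1.15 CPM in the latter. Of 21 interferon genes, 19 had no UMI in any member and the others had 1 each, Ifnz in OE-MLKL 2 and Ifng, the gene of interferon gamma, in OE-MLKL 3. A count of 0 allowed up to 1.49, 2.65, 3.47 and 4.37 CPM, which is above the sums of the other cancer cells, so that the zeros do not set the states apart. Ifnb1 had 14 UMIs in all cells of the 4 libraries. Ifng had 4311, of which 3259 were in gated T cells, at 1552, 304, 367 and 1036 UMIs. The T cell gate thus held most of the Ifng transcripts that were captured. That gate was mixed, with T cell markers at 3192, 2455, 2238 and 2661 CPM. Natural killer cell markers stood at 3707, 421, 777 and 1606 CPM in it, and which of these cells held Ifng was not tested.

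Most receptors and their kinases did not pass the test. Of 8 tested, Ifnar2, a chain of the type I receptor, passed the test, at 144, 70.6, 69.4 and 111 against 111, 59.8, 55.3 and 77.7 CPM (log2 fold change 0.40 ± 0.10 SE, adjusted p = 0.0226). That call was lost without OE-Vector 1 (adjusted p = 0.131) and without OE-MLKL 3 (0.195), and its adjusted p ranged from 0.000792 to 1 over the alternatives. Ifnar1, the other chain, had 47.3, 39.7, 43.9 and 81.6 against 42.4, 33, 34.8 and 60.2 CPM (adjusted p = 0.193), and Ifngr1, the receptor of interferon gamma, 182, 51.2, 48.6 and 105 against 192, 53.3, 39.7 and 94.9 (adjusted p = 0.977). The list median was 0.17 on the log2 scale.

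Transcription factors downstream of the receptors rose in 7 of 10 cases, with a median log2 fold change of 1.08. Irf7, the factor that amplifies the type I response, stood at 128 CPM in OE-Vector 1 and 113, 178 and 138 CPM in OE-MLKL 1, 2 and 3, against 18.2, 11.1, 13.6 and 16.4 CPM in the other cells, and every library of interferon-high cells lay above every library of other cells (log2 fold change 3.26 ± 0.13 SE, adjusted p = 1.55e-15). Stat2 had 134, 127, 126 and 163 against 28.5, 21, 21.6 and 40.3 CPM and did not overlap either (2.38 ± 0.12, adjusted p = 2.55e-14). Irf1, Irf9 and Irf2 rose by 1.94, 1.31 and 0.85. Irf3, which is activated as a protein and not through its transcript, stayed at 27.9, 24.7, 47.4 and 36.4 against 31.2, 27.9, 40.4 and 38.6 CPM (log2 fold change -0.01, adjusted p = 0.986). Stat3 was called at 0.35, a call lost without OE-Vector 1 (adjusted p = 0.238), OE-MLKL 2 (0.321) or OE-MLKL 3 (0.171), with a range of 7.16e-05 to 1 over the alternatives.

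Sensors of nucleic acids, which detect viral or misplaced RNA and DNA, rose in 8 of 13 tested cases (median 0.68). Of these, Ifih1 lost its call without OE-Vector 1 (adjusted p = 0.364, range over the alternatives 0.00157 to 0.498). Tbk1 lost its call without OE-Vector 1 (0.104), OE-MLKL 2 (0.142) or OE-MLKL 3 (0.381, range 0.00801 to 0.643). Ddx58, which encodes RIG-I, had 80.2, 123, 90.2 and 144 against 28.9, 20.3, 22.9 and 35.7 CPM (2.04 ± 0.14, adjusted p = 3.15e-11), and Dhx58 rose by 3.18, Tlr3 by 2.03 and Adar, an RNA-editing enzyme, by 0.86. Zbp1, a sensor of Z-form nucleic acids that can start necroptosis through Ripk3, had 356, 95.3, 234 and 308 against 114, 13.1, 29.5 and 69.8 CPM (2.38 ± 0.15, adjusted p = 7.78e-12). The adaptor Mavs had 5.98, 7.94, 5.78 and 10.2 against 12.4, 13.8, 12.8 and 13.3 CPM (log2 fold change -0.83, adjusted p = 0.087) and the DNA sensor Cgas 15.4, 7.06, 3.47 and 29.2 against 11.1, 8.33, 10.2 and 17.6 (adjusted p = 0.846), and neither passed the test. The feedback inhibitors Usp18, which removes Isg15 from proteins and blocks the type I receptor, Socs1 and Trim21 rose by 4.20, 2.14 and 2.27, 3 of 6 tested.

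Antiviral effectors were the longest list, with 34 of 38 tested genes higher and none lower, against 2.79% of all genes, and a median log2 fold change of 1.94. The call of Slfn5 was lost without OE-MLKL 3 (adjusted p = 0.497) and without marked doublets (0.512). Ifit3b showed the largest rise among all named genes, from 3.6, 0.929, 1.34 and 2.34 CPM to 78.7, 93.5, 67.1 and 80.2 CPM, with no overlap between states (log2 fold change 5.43 ± 0.26 SE, 43.1-fold, adjusted p = 1.26e-14). Reads may be split between Ifit3b and Ifit3, a gene that chose the cells, so that this rise is not independent of the rule. Oasl1, an OAS-like protein that restrains Irf7 translation, had 76.7, 110.3, 33.5 and 81.6 against 5.24, 2.23, 3.23 and 7.03 CPM (4.19 ± 0.26, adjusted p = 3.88e-12), lower in OE-MLKL 2 than elsewhere. Ifi44, Slfn8 and Oas3 rose by 3.55, 3.77 and 3.45. Bst2, which tethers virus to the membrane, had 760, 316, 373 and 407 against 293, 60.2, 65.9 and 125 CPM (2.01 ± 0.14). Ifitm3, a membrane protein that the other cells also held at 2228, 2133, 2299 and 1616 CPM, rose less, to 3535, 3115, 3726 and 2577 CPM (0.68 ± 0.09, adjusted p = 2.93e-06). The states did not overlap for Bst2 or Ifitm3.

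**Figure D3:**
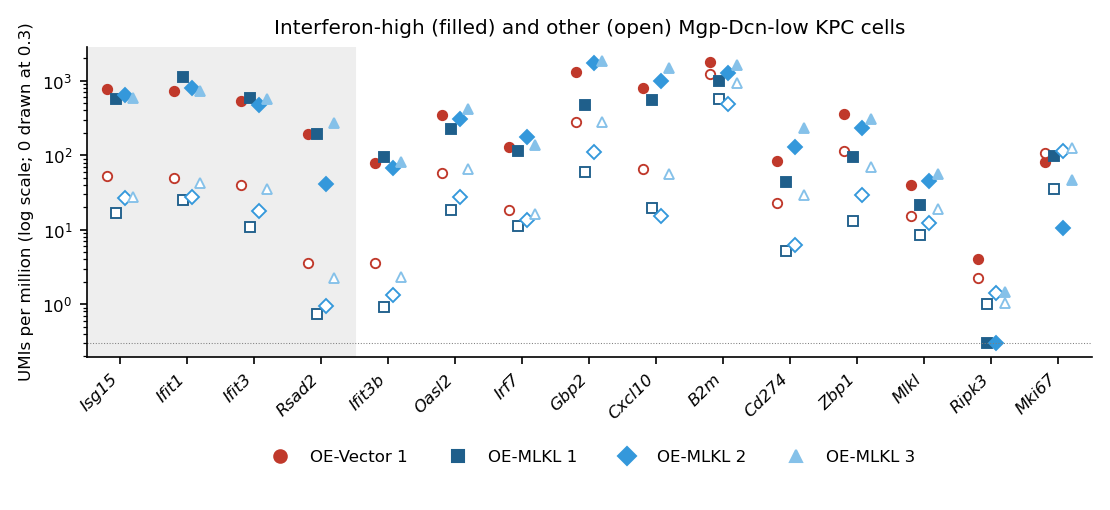
CPM (log axis, 0 drawn at 0.3) of 15 genes in interferon-high (filled) and other Mgp-Dcn-low KPC cancer cells (open), with 1 point per library, and with the genes that chose the cells on a grey ground. Ifit3b stood at 67.1 to 93.5 against 0.929 to 3.6, Mlkl at 21.2 to 55.4 against 8.4 to 18.9, and Mki67 overlapped between the states. Ifit3b may share reads with the chosen gene Ifit3.

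The pathway that attaches Isg15 and related ubiquitin ligases rose in 10 of 11 tested genes (median 2.27). Usp18 and Trim21 are counted both in this list and among the feedback inhibitors. Usp18 had 69.7, 59.1, 65.9 and 67.1 against 7.6, 2.26, 2.07 and 4.08 CPM (4.20 ± 0.23, adjusted p = 3.77e-13), a narrow range in interferon-high cells. Herc6, the mouse ligase for Isg15, rose from 26.1, 5.51, 7.86 and 34 to 146, 62.7, 83.3 and 275 CPM (3.06 ± 0.14), and Rnf213, a large ubiquitin ligase, from 63.1, 21.6, 36.1 and 84.6 to 303, 102, 208 and 423 CPM (2.37 ± 0.09).

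Guanylate-binding proteins and immunity-related GTPases, which act on vacuoles of intracellular pathogens and are induced mainly by interferon gamma, rose in 16 of 16 tested genes (median 2.38). The call of Gvin1 was lost without OE-Vector 1 (adjusted p = 0.0909) or OE-MLKL 3 (0.0945). Gbp2 had 1334 CPM in OE-Vector 1 and 469, 1729.8 and 1844 CPM in OE-MLKL 1, 2 and 3, against 277, 59.1, 110.2 and 283 CPM (3.01 ± 0.16, 8.05-fold, adjusted p = 2.33e-13). Gbp5, which also supports inflammasomes, had 267, 65.3, 256 and 564 against 33.5, 4.75, 7.14 and 44.4 CPM (3.88 ± 0.20), and Igtp 719, 242, 578 and 727 against 139, 32.1, 46.8 and 108 (2.94 ± 0.13). OE-MLKL 1 was the lowest library for all 3 in both states, and the states did not overlap. Gbp6 and Gbp10 rose by 3.47 and 3.63, and Gbp10 overlapped between the states, with 36.9, 3.53, 12.7 and 58.3 against 3.96, 0.239, 0.475 and 5.27 CPM. Members of this family share sequence, as do Tgtp1 and Tgtp2 and the H2-Q genes, so that the split of reads among them is uncertain.

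Antigen presentation by MHC class I rose by less, in 17 of 21 tested genes (median 0.91). The call of H2-Q4 was lost without OE-MLKL 3 (adjusted p = 0.112). B2m, the light chain, had 1770.1, 981, 1268 and 1638 against 1229.9, 568, 485 and 937 CPM (0.91 ± 0.11, 1.88-fold, adjusted p = 6.89e-07), and H2-K1, a heavy chain, 1309, 494, 580.5 and 1136 against 834, 309, 232 and 689.8 (0.87 ± 0.10, adjusted p = 5.57e-07). Each rose within every library, while the ranges of the states overlapped. Tap1, the peptide transporter, and Psmb9, an immunoproteasome subunit, rose by 1.83 and 1.73, and Nlrc5, the transactivator of these genes, by 1.23. Of 7 genes of MHC class II 4 rose (median 0.64), led by their transactivator Ciita at 25.4, 8.82, 26.6 and 109 against 7.16, 1.71, 2.62 and 17.8 CPM (2.50 ± 0.24, adjusted p = 1.21e-08). The invariant chain Cd74 had 364, 99.7, 274 and 901 against 281, 72, 92.1 and 543 CPM (0.81), and H2-Aa 68.7, 32.7, 71.7 and 259 against 58.7, 30.2, 33.4 and 169 (0.54). H2-DMb1 completed the 4. The call of H2-Aa was lost without OE-MLKL 2 (adjusted p = 0.11) and OE-MLKL 3 (0.122), over a range of 1.13e-06 to 1, and that of H2-DMb1 without OE-MLKL 3 (0.0597), over a range of 1.09e-06 to 0.984. Macrophages hold class II transcripts too, and the part of macrophage RNA in these values was not tested.

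Among 21 tested chemokines and cytokines 7 rose (median 0.71). The call of Cx3cl1 was lost without OE-Vector 1 (adjusted p = 0.18) or OE-MLKL 3 (0.0775). Cxcl10, which attracts T cells through Cxcr3, had 807 CPM in OE-Vector 1 and 552, 1002 and 1484 CPM in OE-MLKL 1, 2 and 3, against 65.7, 19.5, 15.3 and 56 CPM (4.82 ± 0.22 SE, 28.2-fold, adjusted p = 7.3e-15), and the states did not overlap. It was also above the free RNA of each library, which held 148, 43.6, 62.1 and 122 CPM. Cxcl9, another ligand of Cxcr3, had 569, 140.3, 556 and 1426 against 145, 11.6, 25.3 and 136 CPM (3.36 ± 0.22, adjusted p = 1.12e-11). Gated macrophages held Cxcl9 at 707, 303, 725 and 1007 CPM and free RNA at 234, 61.8, 117 and 240 CPM. The summed level of interferon-high cells lay above the free RNA in each library, but in OE-MLKL 1 only 11 of 65 cells held a Cxcl9 UMI and 3 cells held 94.97% of the 159 UMIs. Tnfsf10, the death ligand TRAIL, rose from 1.98, 0.465, 0.682 and 3.66 to 25.9, 11.5, 17.3 and 36.4 CPM (3.99 ± 0.33). Ccl5, a T cell and monocyte attractant, rose by 2.35 ± 0.30 (adjusted p = 2.58e-06), but 204 of its 350 UMIs in OE-Vector 1 came from 1 cell. Cxcl1 and Cxcl5, which attract neutrophils, had 20.9, 16.8, 3.47 and 27.7 against 19.6, 26.4, 9.33 and 15.6 and 572, 428, 407 and 380.5 against 462, 711, 411 and 336 CPM (adjusted p = 0.968 and 0.964).

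Of 12 genes that act as immune checkpoints or signals to phagocytes 4 rose (median 0.23). Cd274, which encodes PD-L1, had 82.7 CPM in OE-Vector 1 and 43.2, 129.5 and 235 CPM in OE-MLKL 1, 2 and 3, against 23, 5.22, 6.18 and 29.1 CPM, with no overlap (3.04 ± 0.23, 8.22-fold, adjusted p = 1.52e-10). Lgals9 and the phagocytosis inhibitor Cd47 rose by 0.75 and 0.41. Ido1, which degrades tryptophan, was called at 2.62 but had 12.5, 0, 0 and 4.37 against 1.73, 0, 0.195 and 0.696 CPM and no UMI in the interferon-high cells of OE-MLKL 1 and 2. The call of Ido1 was lost without OE-Vector 1 (adjusted p = 0.678, range over the alternatives 5.26e-05 to 0.932).

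**Figure D4:**
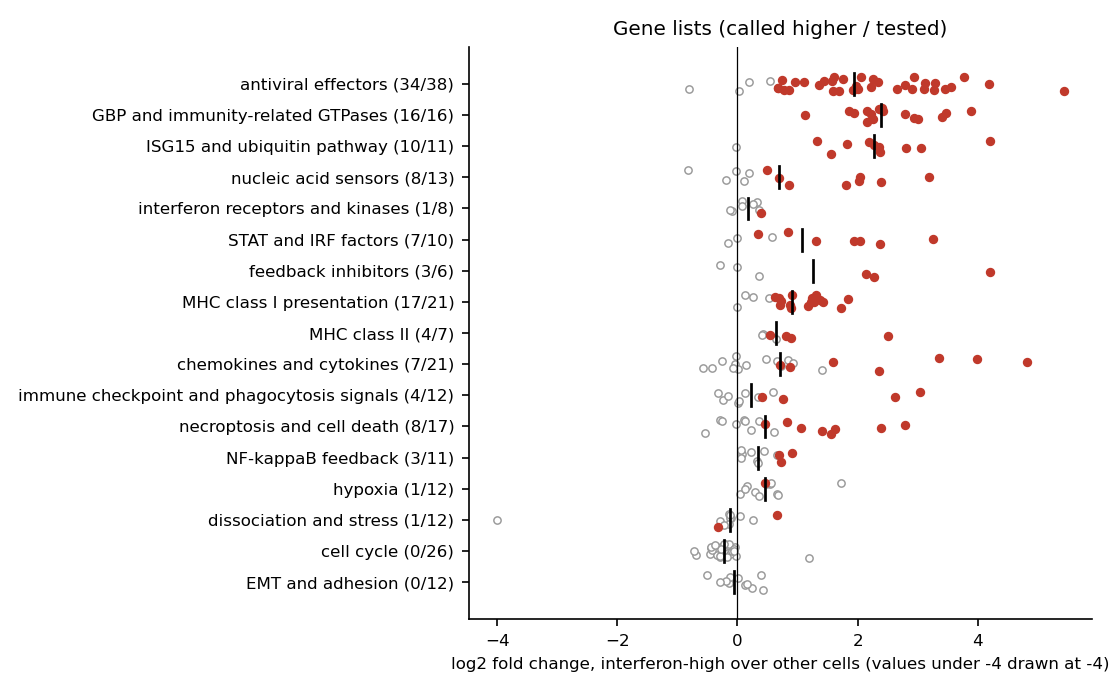
Log2 fold change of interferon-high over other Mgp-Dcn-low KPC cancer cells for each tested gene of 17 lists, with filled points for genes called by edgeR, open points for the others and a black bar at the median. The list of guanylate-binding proteins was called in 16 of 16 genes (median 2.38) and that of cell cycle genes in none of 26 (median -0.22).

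Mlkl, the pseudokinase that ruptures the membrane in necroptosis and the gene that the construct was meant to raise, was higher in interferon-high cells than in the other cancer cells of every library. It lies at chr8:111311797-111338177 on the minus strand (GRCm38, GENCODE vM21, gene ID ENSMUSG00000012519). In interferon-high cells it had 39.8 CPM in OE-Vector 1 and 21.2, 45.1 and 55.4 CPM in OE-MLKL 1, 2 and 3, from 80, 24, 39 and 38 UMIs, with exact 95% Poisson intervals of 31.6 to 49.6, 13.6 to 31.5, 32.1 to 61.6 and 39.2 to 76.0. In the other cancer cells it had 15.2, 8.4, 12.4 and 18.9 CPM, with intervals of 14.2 to 16.2, 7.76 to 9.09, 11.6 to 13.1 and 17.7 to 20.1. The states did not overlap, and the rise was 1.56 ± 0.16 on the log2 scale, or 2.95-fold (adjusted p = 8.58e-08). It was called in 15 of 15 alternatives, at 1.36 to 1.64 with adjusted p from 1.29e-16 to 0.0192. Within the interferon-high cells no difference in Mlkl was called between the groups, at -0.09 on the log2 scale for OE-MLKL over OE-Vector (adjusted p = 1). Its level in free RNA was 13.3, 9, 12.7 and 10.6 CPM, in gated macrophages 11.1, 6.93, 13.1 and 10.3 and in gated neutrophils 2.4, 1.54, 2.86 and 4.41, all below the interferon-high cells of the same library. The construct reaches the Mlkl count only where its transcript ends inside the annotation, and Mlkl overlaps the antisense gene Gm45712, with the counting strand not given in the sources used here.

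The list of necroptosis and cell death shares Zbp1 with the sensors and Xaf1 with the antiviral effectors. Of its 17 genes 8 rose, against 2.79% of all tested genes, and none fell (median 0.46). Besides Mlkl and Zbp1 these were Xaf1, a proapoptotic antagonist of caspase inhibitors (200.2, 141, 172 and 195 against 38.9, 17.7, 20.6 and 31.2 CPM, 2.79 ± 0.12), Daxx (1.62), Casp4, which senses cytosolic lipopolysaccharide (1.41), the death receptor Fas (1.05), Casp1 (0.83) and Ripk1 (0.46). The calls of Casp1 (adjusted p = 0.08 without OE-Vector 1, range 1.46e-07 to 0.747) and Ripk1 (0.297 without OE-Vector 1 and 0.104 without OE-MLKL 2, range 0.00434 to 0.695) depended on single libraries. Ripk3, the kinase that phosphorylates Mlkl, was sparse, with 3.98, 0, 0 and 1.46 CPM from 8, 0, 0 and 1 UMIs, against 2.23, 0.996, 1.4 and 1.04 CPM (log2 fold change 0.11 ± 0.66, adjusted p = 0.98). A change in Ripk3 was not detectable at this depth. Casp8, which cleaves Ripk1 and Ripk3, had 28.9, 13.2, 20.8 and 43.7 against 28.1, 19.1, 21.1 and 26.6 CPM (adjusted p = 0.865).

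Beyond these lists the named higher genes included Ifi206, a cytosolic DNA-binding protein of the Ifi200 family, at 31.4, 9.71, 23.1 and 29.2 against 2.11, 0.133, 0.378 and 1.59 CPM (4.80 ± 0.40), Serpina3f, a protease inhibitor, at 28.9, 12.4, 82.1 and 121 against 6.36, 0.505, 1.38 and 11.1 (3.88 ± 0.38), and Batf2, a transcription factor, at 102, 40.6, 139.9 and 278 against 12.2, 4.41, 5.99 and 22.2 (3.64 ± 0.17). Apol9a rose by 3.45. The states did not overlap for any of these 4. For Serpina3f the lowest level, in OE-MLKL 1, rested on 14 UMIs in 4 cells, 7 of them in 1 cell.

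Genes that were lower in interferon-high cells changed by less. The 10 named ones were picked for the same direction in 4 of 4 libraries. Among them Scx, Aqp5 and Auts2 lay below the other cells with no overlap across libraries, and the share of all tested genes without overlap is not given here. Scx, a transcription factor of tendon progenitors, had 37.9, 54.7, 42.8 and 35 against 76.2, 99.3, 88.2 and 61.3 CPM, lower in 4 of 4 libraries (-0.90 ± 0.12, adjusted p = 5.68e-06). Aqp5, a water channel of ducts and glands, had 59.3, 91.8, 72.8 and 59.8 against 107, 144, 125 and 117 CPM (-0.76 ± 0.11, adjusted p = 1.63e-05). Per3, a clock gene, and Zg16, a secretory granule protein, fell by 0.85 and 1.06 on the log2 scale (adjusted p = 0.00424 and 0.00226). Scx, Aqp5, Per3 and Zg16 kept their calls when any 1 library was left out. Over all alternatives Scx and Aqp5 were each called in 14 of 15 (adjusted p 5.62e-09 to 0.382 and 1.13e-09 to 0.46), Per3 in 12 (0.00178 to 0.655) and Zg16 in 10 (1.1e-05 to 1), where Zg16 went as near to 0 as -0.04. Tff3, a mucosal peptide of 2.99, 1.76, 2.31 and 24.8 against 17.3, 11, 7.16 and 36.5 CPM, was called at -1.53 but rested on 6, 2, 2 and 17 UMIs and gave an adjusted p of 0.0669 without OE-Vector 1 (range 1.89e-05 to 1). The other 5 calls were also lost without 1 library, namely Zhx3 (-0.74, adjusted p = 0.0693 without OE-MLKL 1, range 2.89e-05 to 1), Abcc3 (-1.03, 0.0776 without OE-MLKL 1 and 0.122 without OE-MLKL 2, range 0.0113 to 0.517), Gm42937 (-1.13, 0.38 without OE-MLKL 3, range 2.32e-05 to 0.974), Auts2 (-0.77, 0.156 without OE-Vector 1 and 0.122 without OE-MLKL 3, range 0.0147 to 0.57) and Edn1 (-0.84, 0.195 without OE-MLKL 3, range 0.00302 to 1).

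None of 26 cell cycle genes passed the test, though 25 of them had a negative log2 fold change (median -0.22, median of all genes -0.06). Mki67, a marker of dividing cells, had 81.7, 98, 10.4 and 46.6 against 108, 35.1, 115 and 124 CPM (log2 fold change -0.46 ± 0.33, adjusted p = 0.62), so that OE-MLKL 1 went up where the other 3 libraries went down. Without OE-MLKL 1, Mki67 fell by 1.20 (adjusted p = 2.33e-12) and Top2a by 0.65 (2.47e-07), over ranges of 2.33e-12 to 1 and 2.47e-07 to 1. Without OE-MLKL 2 the sign turned for both, with Mki67 at 0.01 (adjusted p = 0.992) and Top2a at 0.11 (0.84). Genes of epithelial to mesenchymal transition did not pass the test either, 0 of 12 (median -0.05), with Vim at 1137, 2401, 1469.6 and 1343 against 1085, 1734, 1530.1 and 1485 CPM and Fn1 at 1471, 1441, 1392 and 2494 against 1674, 1641, 1644 and 2705. Of 12 hypoxia genes Ndrg1 was called (0.46, adjusted p = 0.0407), a call lost without OE-MLKL 2 (0.203, range 1.38e-05 to 1), and the list median was 0.47. Feedback genes of NF-kappaB rose in 3 of 11 cases (median 0.33), with Nfkbia, its inhibitor, at 296, 251, 239 and 372 against 187, 219, 150.5 and 175 CPM (0.69 ± 0.10, adjusted p = 2.98e-05). The call of Relb, another of them, was lost without OE-MLKL 3 (adjusted p = 0.362, range 6.08e-05 to 0.66). In a list of dissociation and stress genes Ddit3, a factor of the endoplasmic reticulum stress response, rose by 0.66 (adjusted p = 0.000344) and 1 of 12 fell, Fosb, an immediate early gene, at -0.33. The call of Fosb was lost without OE-Vector 1 (adjusted p = 0.221) and OE-MLKL 3 (0.163, range 0.00249 to 1).

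The cells with the highest chosen genes were not the highest in every interferon gene. When the cells of each library were ordered by the chosen genes and split into 3 groups, which summed to 73, 76 and 76 cells over the libraries, with medians of 0.113%, 0.172% and 0.321%, the Isg15 and ubiquitin pathway summed to 1159, 1246 and 1572 CPM. Antiviral effectors summed to 8310, 7914 and 9456 CPM and guanylate-binding proteins with related GTPases to 5213, 5208 and 4768. Mlkl stood at 38.0, 42.7 and 34.8 CPM and Cxcl10 at 873, 687 and 1090.2 CPM. Zbp1 stood at 238, 246 and 305 CPM. The sums of the Isg15 and ubiquitin pathway and of Zbp1 rose from group to group, but within libraries the rank correlation of the pathway with the chosen genes was 0.23 in OE-Vector 1 (65 cells), 0.37 in OE-MLKL 1 (65 cells), 0.28 in OE-MLKL 2 (66 cells) and -0.02 in OE-MLKL 3 (29 cells). In the same library order the rank correlation was -0.11, 0.18, 0.19 and -0.47 for guanylate-binding proteins with related GTPases. For Cxcl10 it was 0.13, 0.49, 0.35 and -0.23. Both the groups and the correlations use the values by which the rule chose the cells, and cells are not replicates. The CPM values are sums over cells of 4 libraries, and all of these values are a description without a test.

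The third comparison asked whether the interferon-high cells differed between the libraries labelled OE-MLKL and OE-Vector. The edgeR test called 0 of 9560 genes higher (0%) and 1 lower (0.0105%), and 378 lay under an unadjusted p of 0.05. By DESeq2 the count was 1 and by limma-voom 0. The single gene was Chil4, a chitinase-like protein of macrophages and airway cells, with 313 UMIs (156 CPM) in OE-Vector 1 and 0 in the OE-MLKL libraries, at least 139-fold higher when the floor of 3 counts is taken over the 3 OE-MLKL libraries together. Of these 313 UMIs 290 were in 1 cell, or 92.7%. The call was lost under stricter leukocyte limits (log2 fold change -7.06, adjusted p = 0.411), at a threshold of 0.2% and by limma-voom (range over the alternatives 1.41e-35 to 0.47). The fit leaves 2 residual degrees of freedom, from the OE-MLKL libraries alone, and assumes that the lone OE-Vector library varies like them. The count rose to 27, 25 and 38 without OE-MLKL 1, 2 and 3 and to 74 without a filter on low counts. No interferon list had a called gene. The lists with the largest median differences of OE-MLKL from OE-Vector among those of 10 or more tested genes were hypoxia (1.14, 10 of 12 terms positive), cell cycle (-1.10, 24 of 25 negative) and MHC class I (-0.67, 20 of 20 negative), beside a median of 0.01 over all genes, and none of their genes was called.

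**Figure D5:**
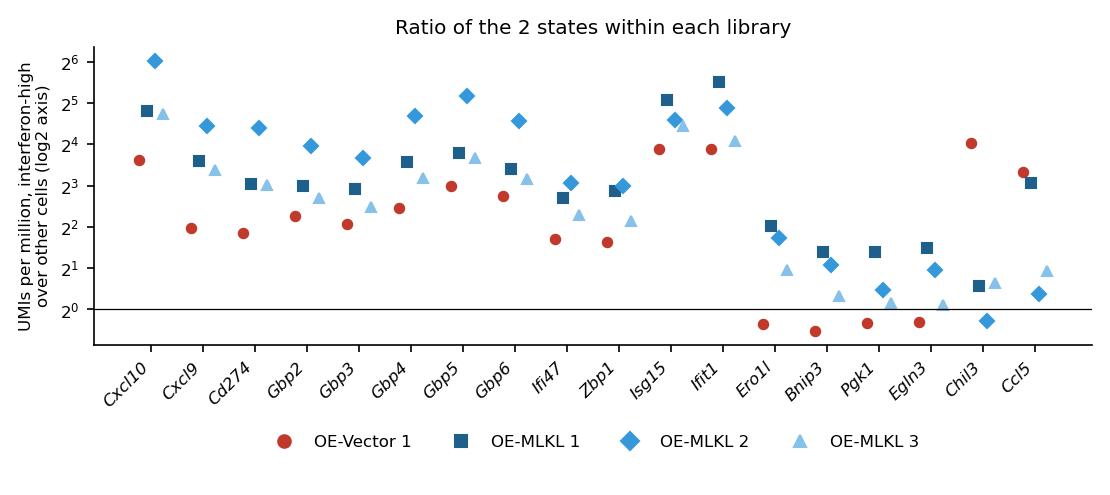
Ratio of CPM in interferon-high over other Mgp-Dcn-low KPC cancer cells within each library (log2 axis) for the chosen genes Isg15 and Ifit1 and others with a called interaction. The ratio of Cxcl10 was 12.3 in OE-Vector 1 and 26.5 to 65.4 in the OE-MLKL libraries, and that of Bnip3 was 0.691 in OE-Vector 1 and 1.24 to 2.6 in the OE-MLKL libraries, with 66.1% of the Bnip3 UMIs of OE-MLKL 3 in 3 cells.

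The last comparison asked whether the difference between the states was itself different between the groups, as an interaction term in the same fit. It was called for 19 genes as higher in OE-MLKL (0.119% of 15906 tested) and for 5 as lower (0.0314%), with 377 below 0.05 before adjustment. By DESeq2 there were 2 calls and by limma-voom none, of 743 below 0.05 before adjustment. Without OE-MLKL 1 the count was 70 and without OE-MLKL 2 it was 13. Of the 19, 6 were guanylate-binding proteins or related GTPases, and all 16 tested genes of that list had a positive term (median 1.01). For Gbp2 the ratio of interferon-high to other cells was 4.81, 7.93, 15.7 and 6.52 in OE-Vector 1 and OE-MLKL 1, 2 and 3 (interaction 1.01 ± 0.24 on the log2 scale, adjusted p = 0.0155). Its level in interferon-high cells of OE-Vector 1 lay within the OE-MLKL range, while its other cancer cells had 277, 59.1, 110.2 and 283 CPM, and free RNA had 370.3, 123, 179 and 291. Members of every library had passed the same threshold of 0.1%. The other cells had a median share of the chosen genes of 0.00836% in OE-Vector 1. In OE-MLKL 1, 2 and 3 that median was 0, 0 and 0.00636%. Ratios of genes that go with the chosen genes therefore depend on the rule, and its part in the interaction terms was not tested. Without OE-MLKL 2 the call of Gbp2 was lost (term 0.59, adjusted p = 1, range over the alternatives 5.55e-07 to 1), as were those of the 5 other genes of the list.

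Cxcl10 had ratios of 12.3, 28.3, 65.4 and 26.5 (interaction 1.62 ± 0.23, adjusted p = 1.62e-08), and Cxcl9 3.91, 12.1, 22 and 10.5 (1.89 ± 0.23, adjusted p = 4.12e-12). In OE-MLKL 1 the Cxcl9 ratio rested on the 3 cells that held 94.97% of its UMIs. The ratios of both genes were lowest in OE-Vector 1, whose other cancer cells held the highest levels of both (65.7, 19.5, 15.3 and 56 CPM of Cxcl10 and 145, 11.6, 25.3 and 136 CPM of Cxcl9 in OE-Vector 1 and OE-MLKL 1, 2 and 3), while its interferon-high cells lay within the OE-MLKL range. Both kept their calls when any OE-MLKL library was left out. Each was called in 10 of 12 alternatives, with Cxcl10 lost by DESeq2 and limma-voom (adjusted p over the alternatives 1.79e-16 to 1) and Cxcl9 lost by limma-voom, among others, with terms down to 0.80 (2.54e-19 to 0.956). Cd274 had ratios of 3.59, 8.29, 21 and 8.06 (1.69 ± 0.28, adjusted p = 3.6e-06) and lost its call without OE-MLKL 2 (adjusted p = 0.129, range 8.64e-09 to 1). Free RNA held 67.9, 15.7, 19.5 and 50.7 CPM of Cd274, below the interferon-high cells and above the other cancer cells of each library, and its part in the ratios was not tested.

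Genes of the hypoxia response formed a second set. Of 12 tested, 4 had a called interaction, Bnip3, Pgk1, Egln3 and Adm, and all 12 terms were positive (median 1.09). Bnip3, a mitochondrial death and mitophagy protein, had ratios of 0.691, 2.6, 2.11 and 1.24 (1.57 ± 0.28, adjusted p = 2.47e-05, range 1.61e-06 to 1), and Pgk1, a glycolytic enzyme, 0.796, 2.63, 1.38 and 1.12 (1.07 ± 0.24, adjusted p = 0.00521). Both lay below 1 in OE-Vector 1 and above 1 in all OE-MLKL libraries, where 3 cells held 66.1% of the 56 Bnip3 UMIs of OE-MLKL 3 and 50.7% of the 73 of OE-MLKL 2. Ero1l, an oxidase of the endoplasmic reticulum outside the list, had 0.785, 4.06, 3.33 and 1.94 (1.98 ± 0.27, adjusted p = 1.04e-09, range 8.22e-11 to 0.956), and 49 of its 102 UMIs in OE-MLKL 2 and 59 of 122 in OE-MLKL 3 came from 1 cell each. The call of Pgk1 was lost without OE-MLKL 1 (adjusted p = 0.162, range 0.000155 to 1). Egln3, an oxygen-sensing enzyme, had 0.812, 2.82, 1.95 and 1.08 (1.23, adjusted p = 0.00521), and lost its call without OE-MLKL 1 (0.347) or OE-MLKL 2 (0.129, range 0.000142 to 1), with 65.4% and 57.6% of its UMIs in OE-MLKL 2 and 3 from 3 cells each. Adm, which encodes the vasodilator adrenomedullin, had 0.996, 22.1, 26.6 and 0 CPM from 2, 25, 23 and 0 UMIs, with 18 of the 23 in 1 cell (interaction 4.63, adjusted p = 0.00437, and 0.566 without OE-MLKL 2, range 0.000111 to 1).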

How the data were processed

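The matrices deposited by the authors hold unnormalised counts of UMIs for every barcode of 10x Genomics 3′ single-cell libraries, aligned to mm10. The file headers name Cell Ranger 7.1.0 and the submitters' processing notes Cell Ranger 2.1.1, and whether intronic or antisense reads were counted is not given in the sources used here. The gates, cell filters and gene lists were chosen with earlier results of these data known. Doublets were scored per library against simulated doublets and marked at 0.8% per 1000 cells, without removal in the values of the report, and 12 of 65, 8 of 65, 5 of 66 and 6 of 29 members were so marked in OE-Vector 1 and OE-MLKL 1, 2 and 3, against 174 of 1878, 915 of 4889, 1361 of 5382 and 224 of 2250 other cancer cells, a higher share of members in OE-Vector 1 and OE-MLKL 3 and a lower one in OE-MLKL 1 and 2. Counts were summed per library and state. Sums were tested with the edgeR 4.0.16 quasi-likelihood test (R 4.3.3) with TMM factors, the filterByExpr filter and a Benjamini-Hochberg threshold of 0.05, the library being a block for the contrast of states. The SE given with an edgeR log2 fold change is the size of that change divided by the square root of the F statistic. It therefore restates the test and was not estimated apart from it. DESeq2 1.42.0 and limma-voom (limma 3.58.1) were alternatives. The fits were also run on simulated data, and the outcome is not given here. Named genes were the 15 largest rises and 10 largest falls among calls of the same direction in 4 of 4 libraries with a mean of at least 10 CPM, up to 10 genes of smallest p in the other fits, and members of the lists. Shares and intervals were computed with Python 3.11.15, numpy 2.4.6, scipy 1.17.1 and scikit-learn 1.9.0. Of 32285 gene IDs 32158 were found in GENCODE vM21. A count of 0 allows 3 counts. Values of some items are not reported here.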

Additional observations from a re-analysis of the deposited data

Results flagged for a closer look

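The difference between interferon-high and other cancer cells differed between the libraries labelled OE-MLKL and OE-Vector, by the interaction term of the edgeR fit, for 24 genes. All rest on a single OE-Vector library, and neither DESeq2 (2 calls) nor limma-voom (0 calls) gave a like number.

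Among genes induced by interferon the log2 terms were 1.89 for Cxcl9, 1.62 for Cxcl10, 1.69 for Cd274, 1.36 for Gbp4, 1.26 for Gbp5, 1.02 for Gbp6, 1.01 for Gbp3, 1.01 for Gbp2, 1.03 for Ifi47, 1.06 for Zbp1 and 2.44 for Serpina3f. Under stricter leukocyte limits the calls of Gbp2, Gbp3, Gbp4, Gbp5, Gbp6, Ifi47 and Zbp1 were lost, with adjusted p from 0.102 for Zbp1 to 0.788 for Gbp6, while their terms stayed positive at 0.73 (Gbp6) to 1.03 (Gbp4). Without OE-MLKL 2 the same 7 calls and those of Cd274 and Serpina3f were lost, with terms of 0.59, 0.64, 0.89, 0.73, 0.53, 0.80, 0.85, 1.19 and 1.58 in that order and adjusted p from 0.129 for Cd274 to 1 for Gbp6. The calls of Cxcl9, Cxcl10 and Cd274 were not lost under the stricter leukocyte limits. In OE-MLKL 1, 3 cells held 94.97% of the Cxcl9, 73.8% of the Gbp4 and 92.9% of the Serpina3f UMIs. Members of every library had passed the same threshold, while the other cells of OE-Vector 1 had the highest median share of the chosen genes. The part of this in the terms was not tested.

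For genes of hypoxia and metabolism they were 1.57 for Bnip3, 1.07 for Pgk1, 1.23 for Egln3, 4.63 for Adm, 1.98 for Ero1l and 1.99 for Ada, an enzyme of purine metabolism of whose 95 UMIs in OE-MLKL 1 71 came from 1 cell. The call of Ada was lost without OE-MLKL 1 (term 0.79, adjusted p = 1) and under stricter leukocyte limits (0.133, range 0.00422 to 1). Ptn, a growth factor, had 2.59, with all 39 of its UMIs in OE-MLKL 3 from 3 cells, and lost its call under stricter leukocyte limits (term 1.92, adjusted p = 0.073, range 8.88e-12 to 1). 2610528A11Rik had 1.51 and lost its call without OE-MLKL 2 (1.23, adjusted p = 0.081, range 1.03e-08 to 1). Ada, Serpina3f, Ctla2a and Ccl4 were named here after their values were seen.

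The negative terms were -3.70 for Chil3, -12.70 for Chil4, -3.30 for Ctla2a, -1.65 for Ccl5 and -1.65 for Ccl4. Single cells of OE-Vector 1 held a large part of these transcripts. Chil3 had 199 of its 217 UMIs, and Chil4 290 of 313, in the same cell, which had 67492 UMIs, 1 UMI of Ptprc and a chosen share of 0.105%, just above the threshold. Ctla2a had 86 of 88 UMIs in 1 cell, Ccl5 204 of 350 and Ccl4 110 of 263. Under stricter leukocyte limits the calls of Chil3 (term -1.16, adjusted p = 1, range 4.55e-43 to 1) and Chil4 (-8.91, adjusted p = 1, range 1.45e-11 to 1) were lost, and that of Chil4 also without OE-MLKL 2 (0.311). With marked doublets removed the terms of Ccl5 and Ccl4 were -0.10 and -0.03 (adjusted p = 1 and 1, range over the alternatives 4.63e-12 to 1 and 0.000254 to 1). Both calls were also lost without OE-MLKL 2 (0.0837 and 0.0814), and that of Ccl5 without OE-MLKL 3 (0.101). The fitted value of Chil4, with 0 UMIs in all 3 OE-MLKL libraries, depends on the prior count.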

How the results depend on the processing

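The higher interferon-high share of OE-Vector 1 kept its direction in every alternative, with OE-MLKL minus OE-Vector at -5.27 points at a threshold of 0.05%, -0.941 at 0.2%, -2.02 at 5000 UMIs, -1.53 under stricter leukocyte limits, -1.67 without marked doublets, -5.09 when thinned, -2.90 at 5% mitochondrial UMIs and -2.10 to -2.05 when an OE-MLKL library was left out. The difference of Mgp-Dcn-high from Mgp-Dcn-low cells was -1.02 points at 0.05% and -1.50 when thinned, -0.677 at 5% mitochondrial UMIs, -0.398 to -0.109 in the other settings, and -0.372 to -0.167 when 1 library was left out. The 489 calls between states became 741 by limma-voom and 94 without the replicate block, which keeps the 2 states of a tumour together, and 366 to 709 when 1 library was left out. Without the replicate block 80 of the 150 named genes lost their call, while Mlkl was called at 1.57. DESeq2 split its calls as 405 higher and 22 lower. Genes called between groups in interferon-high cells numbered 23 at 0.2%, 2 at 5000 UMIs, 6 under stricter leukocyte limits, 3 without doublets, 74 without a filter on low counts, 0 by limma-voom and 25 to 38 when 1 library was left out. Called interactions numbered 15 under stricter leukocyte limits, 2 by DESeq2, 0 by limma-voom and 13 to 70 when 1 library was left out. At 0.2% the direction turned for Edn1 (0.0068) and for the interactions of Chil3 (2.68) and Ctla2a (2.67), and the cause was not tested. No paired analysis was possible because OE-MLKL and OE-Vector share only the number 1 among the matrices used here, and no label ties that number to a litter or batch. Depth limits the sparse genes, since 225 cells held 2007801, 1133188, 864845 and 686028 UMIs per library.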
